A study of Mus musculus with 20 samples.

Results

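The platelet-derived growth factor (PDGF) system was described through 5 genes, the ligand genes Pdgfa, Pdgfb and Pdgfc and the receptor genes Pdgfra and Pdgfrb, which were listed by family membership and not by any measured value. Each gene was read from the probe set that the platform annotation assigns to its symbol alone, taking the one with the highest mean over 20 arrays. Of the 5 genes, 4 had such a probe set, out of 17097 genes in the whole series. Pdgfa was not analysed here. Pdgfra did not exceed the filter level for dim probe sets on any array and was not tested, so 3 genes, Pdgfb, Pdgfc and Pdgfrb, were tested among 15556 genes.

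PDGFs are dimeric growth factors that bind a pair of receptor tyrosine kinases, PDGFR-alpha and PDGFR-beta. PDGF-B, made by endothelial cells and platelets among others, recruits pericytes to vessels through PDGFR-beta. PDGF-C is secreted in a latent form, is activated by proteases and signals mainly through PDGFR-alpha. In the gut wall and in carcinomas the receptors are found mostly on fibroblasts, pericytes and muscle cells, while the ligands can come from tumour, endothelial and immune cells.

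RNA came from whole fragments of 20 orthotopic caecum tumours in C57BL/6J mice, grown from 5 mouse tumour organoid (MTO) lines and hybridised with 1 array per tumour. MTO68 and MTO93 were parental lines of genotype LAKTP, MTO140 an LAKTP line of type LiM, MTO54 a parental LAKP line and MTO207 a parental LAKT line. The genotype is that of the tumour cells and not of the host. Each line gave 2 tumours from mice labelled as controls, for which no vehicle is named, and 2 from mice that received galunisertib (10 mg, 2 oral doses each day), starting on day 11 and ending when the mice were killed at week 5. Galunisertib inhibits the kinase of the TGF-beta type I receptor. MTO140 was injected as spheroids in 30% basement membrane extract after 3 days of culture, whereas the other lines were passed under the skin of mice first and grafted as pieces of 1 mm3. The way of grafting thus cannot be told apart from the line for MTO140, and each line is 1 organoid culture. The 4 tumours of a line shared an array strip, so a difference between lines cannot be told apart from one between strips, and treatment was compared within strips.

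All values are log2 levels after RMA, a method that corrects background, equalises arrays and summarises the probes of a set. Array medians lay between 4.93 and 5.12. Over the probe sets of an array the SD was 1.46 to 1.83, and MTO68 control replicate 2 stood apart within its line at 1.47, against 1.76, 1.82 and 1.81 for the other MTO68 arrays. In MTO207 both control arrays were at 1.46, the lowest value, and the treated arrays at 1.57 and 1.55. Array spread and treatment thus went together in that line and cannot be fully told apart there. The epithelial markers of the labelled tumour type, 12 of 12 with a probe set, had mean levels between 8.54 and 10.4 per tumour. In whole tumours fewer cells of a type and less RNA per cell cannot be told apart, which applies to every value below.

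Over the 5 lines, Pdgfb and Pdgfrb had lower mean levels in galunisertib-treated tumours, with a fold of 0.735 and 0.754 over all lines, and in 4 of 5 lines each. Pdgfc had a smaller difference, and none of the 3 tested genes passed adjustment over all genes. For both genes treated and control tumours did not overlap in MTO68, MTO93 and MTO140. They overlapped in MTO54, with differences of -0.25 for Pdgfb and -0.31 for Pdgfrb, and in MTO207, with 0.09 and 0.14. Without MTO54 control replicate 1 the MTO54 differences were 0.14 for Pdgfb and 0.07 for Pdgfrb. The count of 4 lines thus rested on that tumour. At an adjusted p of 0.05 limma called 0% of all 15556 genes over the 5 lines, and 1238 genes had an unadjusted p under 0.05. It called 57 genes with quantile normalization, 166 with the array SD as a covariate and 43 without MTO68 control replicate 2, and none of the 3 PDGF genes was among them.

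The ligand gene Pdgfb had a lowest level of 6.71, a median of 7.31 and a highest level of 8.53 in the 10 control tumours. In the 10 treated tumours these were 6.14, 6.84 and 7.95. The ranges of all control and all treated tumours overlapped, since lines differed in level. In MTO68 the control tumours were at 7.25 and 6.80 and the treated tumours at 6.22 and 6.14. In MTO93 the controls were at 7.47 and 7.59 and the treated tumours at 6.77 and 6.79. In MTO140 the controls were at 7.37 and 7.02 and the treated tumours at 6.95 and 6.53. Both treated tumours lay below both controls in each of these 3 lines. In MTO54 the controls were at 8.53 and 7.75 and the treated tumours at 7.83 and 7.95, and in MTO207 the controls were at 6.71 and 7.14 and the treated tumours at 6.89 and 7.15. The groups overlapped in these 2 lines.

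Over all lines Pdgfb averaged 7.36 ± 0.53 in controls and 6.92 ± 0.60 in treated tumours (SD, n = 10 each). The log2 difference within lines was -0.44 (SE 0.13), a fold of 0.735 of treated over control (limma adjusted p = 0.325, two-sided). Among 15556 genes Pdgfb ranked 175 from the lowest difference, Pdgfrb 207 and Pdgfc 543. By line, the Pdgfb difference was -0.85 for MTO68, -0.75 for MTO93, -0.46 for MTO140, -0.25 for MTO54 and 0.09 for MTO207 (SE 0.27 each). The adjusted p was 0.0834 in MTO68 and at least 0.911 in the other lines (limma). The MTO207 value turned to -0.07 with quantile normalization and to -0.11 with the array SD as a covariate, so it has no settled direction. Over omissions of an array the Pdgfb difference ranged from -0.81 to -0.69 in MTO93. In MTO140 it was -0.25 without the second treated tumour, -0.28 without control replicate 1, and -0.67 at its lowest. A second probe set of Pdgfb, at a mean level of 5.14, gave -0.42 over all tumours and followed the first with r = 0.83 over 20 tumours.

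The receptor gene Pdgfrb had a lowest level of 6.73, a median of 6.93 and a highest level of 7.81 in controls, and 5.84, 6.59 and 7.23 in treated tumours. In MTO68 the control tumours were at 6.93 and 6.87 and the treated tumours at 5.84 and 6.08. In MTO93 the controls were at 7.12 and 6.73 and the treated tumours at 6.53 and 6.62. As for Pdgfb, the treated tumours were the lower ones, with a narrower gap in MTO93. In MTO140 the controls were at 7.28 and 6.89 and the treated tumours at 6.56 and 6.42. In MTO54 the controls were at 7.81 and 7.06 and the treated tumours at 7.02 and 7.23, and in MTO207 the controls were at 6.92 and 6.80 and the treated tumours at 6.81 and 7.19. The groups did not overlap in MTO68, MTO93 and MTO140 and overlapped in MTO54 and MTO207.

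The mean level of Pdgfrb was 7.04 ± 0.31 in controls and 6.63 ± 0.45 in treated tumours (SD, n = 10 each). Within lines the difference was -0.41 (SE 0.13), a fold of 0.754 (limma adjusted p = 0.358). By line it was -0.94 for MTO68, -0.34 for MTO93, -0.59 for MTO140, -0.31 for MTO54 and 0.14 for MTO207 (SE 0.25 each). Pdgfrb in MTO93 was -0.15 without MTO93 control replicate 1 and -0.54 without replicate 2, and Pdgfrb in MTO140 ranged from -0.78 to -0.39 over omissions of an array. The MTO68 value, the largest of these, had an adjusted p of 0.0613 (limma), and the others at least 0.854. Quantile normalization of the deposited values placed both Pdgfrb (-1.06, limma adjusted p = 0.0359) and Pdgfb (-1.004, limma adjusted p = 0.0370) of MTO68 past the threshold, and turned Pdgfrb in MTO207 to -0.01. Without MTO68 control replicate 2, the array that stood apart, the values in MTO68 were -0.97 for Pdgfrb and -1.08 for Pdgfb. Without replicate 1 in its place they were -0.91 for Pdgfrb and -0.63 for Pdgfb. Each of these omissions left a single control tumour in MTO68, so no adjusted p is read from them.

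**Figure D1:**
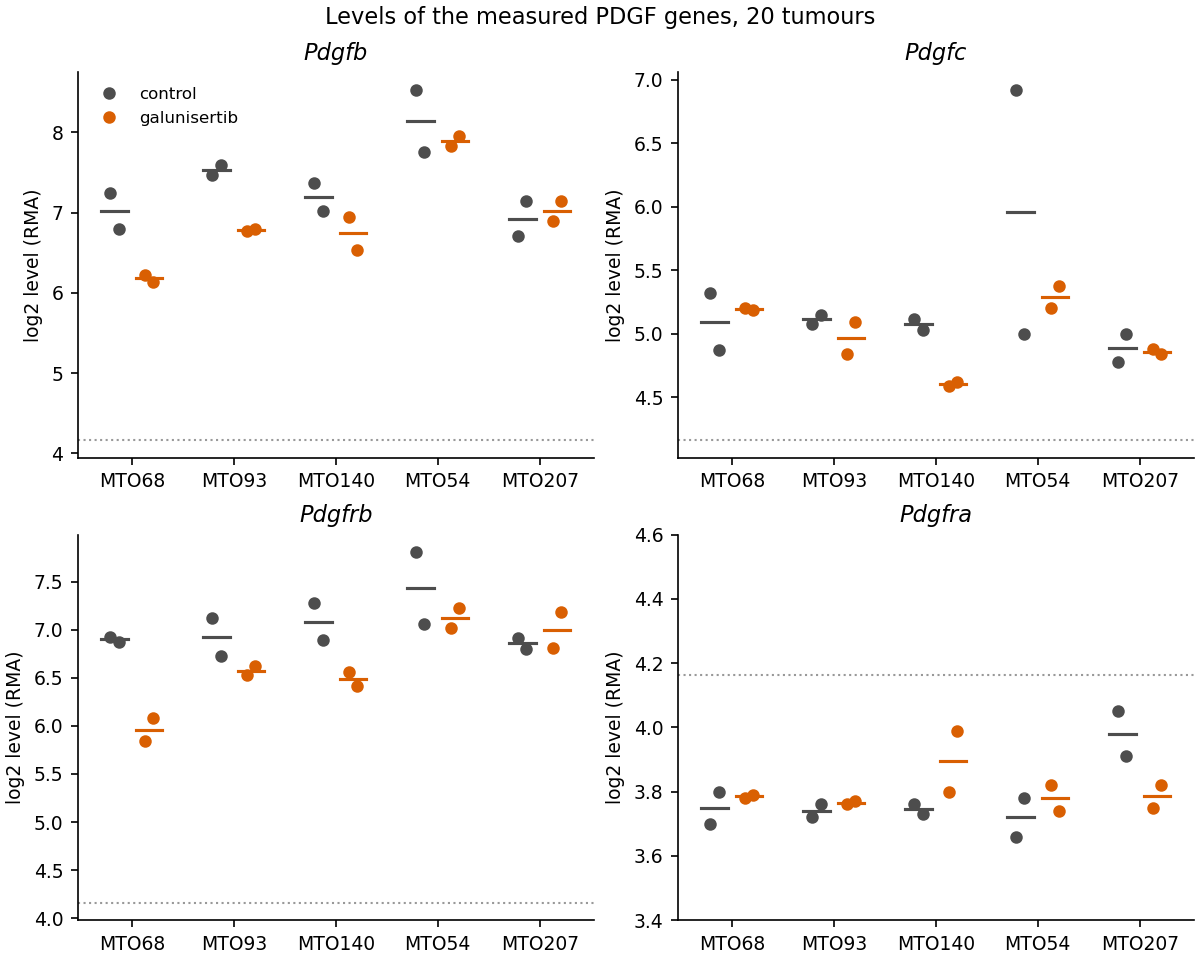
Log2 RMA levels (y axis) of the 4 genes with a named probe set in each tumour, by organoid line (x axis); dots are tumours, grey for control and orange for galunisertib, horizontal bars are means of 2, and the dotted line is the filter level of 4.16. Treated tumours lie below controls for Pdgfb and Pdgfrb in MTO68, MTO93 and MTO140, 1 control tumour of MTO54 stands high for Pdgfc at 6.92, and Pdgfra stays under the dotted line in all 20 tumours. The y axes do not start at 0 and differ between panels.

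The ligand gene Pdgfc lay between 4.78 and 5.32 in 9 of 10 control tumours and at 6.92 in MTO54 control replicate 1, and between 4.59 and 5.38 in treated tumours. Treated tumours lay below controls without overlap in 1 line, MTO140, with controls at 5.12 and 5.03 and treated tumours at 4.59 and 4.62. Pdgfc averaged 5.23 ± 0.61 in controls and 4.98 ± 0.27 in treated tumours (SD, n = 10 each), and the difference within lines was -0.24 (SE 0.17, limma adjusted p = 0.704). By line it was 0.10 for MTO68, -0.15 for MTO93, -0.47 for MTO140, -0.67 for MTO54 and -0.03 for MTO207 (SE 0.39 each, limma adjusted p at least 0.850). The MTO207 value turned to 0.08 with quantile normalization, and that of MTO68 to -0.43 with the array SD as a covariate and to -0.12 without MTO68 control replicate 2. In MTO93 it ranged from -0.28 to -0.02 over omissions, the ends being those without either treated tumour of that line. Without MTO54 control replicate 1 the difference over 5 lines was -0.08 and that in MTO54 was 0.29, so most of the Pdgfc difference rested on this tumour. Without MTO54 control replicate 2 the MTO54 difference was -1.63, since the high tumour was then the line's only control. The second Pdgfc probe set, at a mean of 4.54 and above the filter level on 14 arrays, gave -0.11 over all tumours and followed the first with r = 0.90.

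Pdgfra, the receptor that PDGF-C activates and a mark of many gut fibroblasts, lay between 3.66 and 4.05 over its single named probe set. It exceeded the filter level of 4.16 on 0 of 20 arrays. Its control and treated means were 3.79 ± 0.11 and 3.80 ± 0.07 (SD, n = 10 each). At this brightness the probe set gives little above background, so these values are a bound on the signal of that probe set and no level of the receptor's RNA. The highest values were 4.05 in an MTO207 control tumour and 3.99 in a treated MTO140 tumour. These values allow no statement on Pdgfra in treated tumours.

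The counts of separated groups were read against all genes. Both treated tumours lay below both controls for 23.2% of all 15556 genes in MTO68. The share was 14.4% for MTO93, 12.6% for MTO140, 16.4% for MTO54 and 31.6% for MTO207. Of the 3 tested PDGF genes, 2 did so in MTO68 and in MTO93, 3 in MTO140 and 0 in MTO54 and MTO207. All 3 had a lower treated mean in 4 of 5 lines, and 14.9% of all genes had one in at least 4 of 5. Without MTO54 control replicate 1 the MTO54 difference turned positive for all 3 genes, so each count rested on that tumour. The lines that broke the pattern were MTO207 for Pdgfb and Pdgfrb and MTO68 for Pdgfc. By the adjusted p, 0 of the 3 genes were called in any line, where limma called 2.01% of genes in MTO68, 0.00643% in MTO140 and 0% in MTO93, MTO54 and MTO207.

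Whether the effect differed between lines was tested with an F test over the 5 line effects. The line effects of Pdgfrb spanned 1.07 on the log2 scale (limma adjusted p = 0.563). Those of Pdgfb spanned 0.94 (limma adjusted p = 0.563) and those of Pdgfc 0.77 (limma adjusted p = 0.791). None of the 3 passed, against 0.0643% of all genes, so a difference between lines was not shown by this test. The Pdgfc span was 1.73 without MTO54 control replicate 2 (limma adjusted p = 0.103; 0.103 to 0.910 over 20 omissions of an array).

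**Figure D2:**
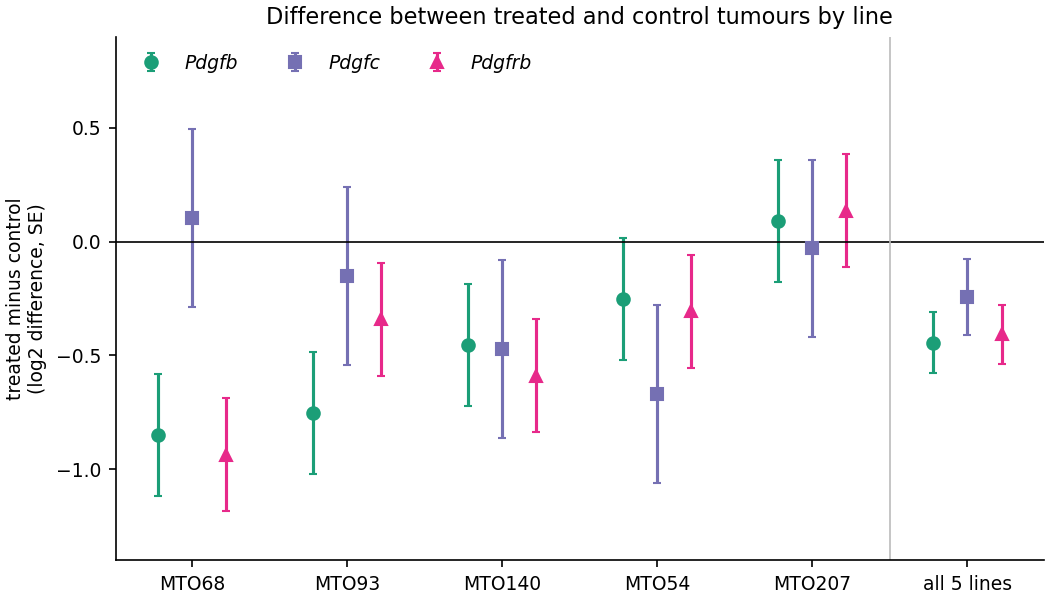
Difference of treated minus control tumours on the log2 scale (y axis) for Pdgfb, Pdgfc and Pdgfrb in each line and over all 5 lines (x axis); bars are standard errors of the limma fits, with 2 tumours per group within a line. Pdgfb and Pdgfrb lie at -0.85 and -0.94 in MTO68 and at 0.09 and 0.14 in MTO207, and none passes adjustment over all genes.

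The lines also differed in their levels in control tumours. Pdgfb was ordered from MTO207 (6.93 ± 0.30) through MTO68 (7.03 ± 0.32), MTO140 (7.20 ± 0.25) and MTO93 (7.53 ± 0.08) to MTO54 (8.14 ± 0.55; SD, n = 2 each). The 3 lowest lines overlapped each with its neighbour, while MTO93 lay above MTO140 and MTO54 above MTO93 without overlap. The F test over the 5 control means gave a limma adjusted p of 0.0610, against 2.8% of all genes called. This missed the threshold, but the F test passed with the array SD as a covariate (adjusted p = 0.0322) and with quantile normalization (adjusted p = 0.0222). Without MTO54 control replicate 1 the span of the control means shrank from 1.21 to 0.82, so part of it rested on that tumour.

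Pdgfrb followed an order from MTO207 (6.86 ± 0.09), MTO68 (6.90 ± 0.05), MTO93 (6.92 ± 0.28) and MTO140 (7.08 ± 0.28) to MTO54 (7.43 ± 0.53; SD, n = 2 each). Every pair of neighbours overlapped (limma F test, adjusted p = 0.282). Pdgfc was 4.89 ± 0.16 in MTO207, 5.07 ± 0.07 in MTO140, 5.09 ± 0.32 in MTO68, 5.12 ± 0.05 in MTO93 and 5.96 ± 1.35 in MTO54 (SD, n = 2 each; limma F test adjusted p = 0.201). MTO207 lay below MTO140 without overlap, and the other neighbours overlapped. MTO54 had the highest control mean for each of the 3 genes, but this rested on control replicate 1 for Pdgfc and Pdgfrb. Its other control, at 5.00 for Pdgfc and 7.06 for Pdgfrb, lay below the means of MTO93, MTO68 and MTO140 for Pdgfc and below that of MTO140 for Pdgfrb, and at 7.75 for Pdgfb it stayed above all other lines. Without MTO54 control replicate 1 the span of the control means was 0.82 for Pdgfb, 0.22 for Pdgfrb and 0.23 for Pdgfc, against 1.21, 0.57 and 1.07 with it.

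Pdgfb and Pdgfrb also varied together from tumour to tumour. With each line's mean subtracted, their levels correlated with r = 0.85 over 20 tumours. By this r Pdgfrb was the gene most like Pdgfb of all genes tested, narrowly ahead of Adcy7 and Eln (0.84 each). The coefficient of Pdgfb and Pdgfrb was 0.86 without MTO68 control replicate 2, where Eln reached 0.87. It was 0.82 without MTO54 control replicate 1. With the mean of each line and treatment subtracted, which takes out the treatment difference, it was 0.64 over the 10 pairs of tumours. Adcy7 (0.77), Anxa8 (0.76) and Eln (0.74) were then more like Pdgfb than Pdgfrb was, so the first rank did not hold. The values of a tumour share its array, and neither gene followed the array SD closely, with r = 0.00 for Pdgfb and -0.11 for Pdgfrb after line means were subtracted. Pdgfc had r = 0.53 to Pdgfb and 0.50 to Pdgfrb with line means subtracted. These were 0.45 and 0.29 without MTO54 control replicate 1, and 0.58 and 0.62 without MTO68 control replicate 2. With the mean of each line and treatment subtracted they were 0.77 and 0.69, above the 0.64 of Pdgfb and Pdgfrb. These values include the MTO54 control pair, at 6.92 and 5.00 by far the widest pair for Pdgfc, and were not computed without it. Which pair was most alike is thus not settled. The r of Pdgfc to the array SD was 0.40.

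**Figure D3:**
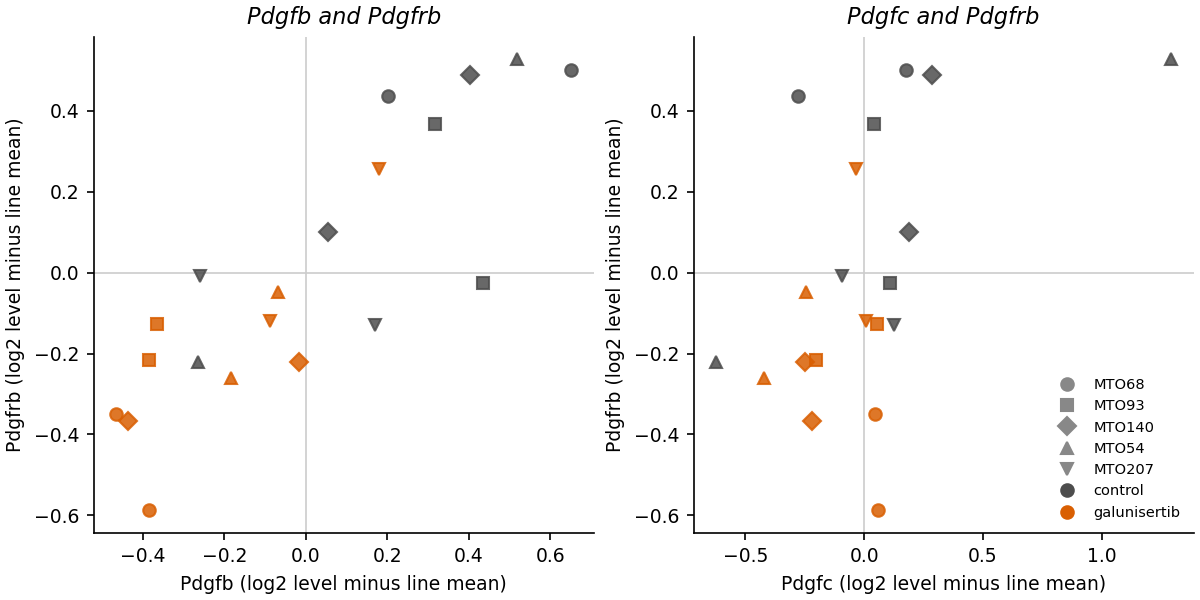
Log2 level minus the line mean of Pdgfrb (y axes) against Pdgfb (left) and Pdgfc (right) in 20 tumours; marker shape is the line, grey is control and orange galunisertib. Pdgfb and Pdgfrb follow each other (r = 0.85), with most treated tumours low for both, while the Pdgfc plot holds 1 far point, the MTO54 control tumour at a Pdgfc level of 6.92.

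Genes with the most similar pattern were listed for each of the 3 genes by the line-centred r over 20 tumours. After Pdgfrb, those closest to Pdgfb were the adenylate cyclase gene Adcy7 (r = 0.84), the elastin gene Eln (0.84) and the annexin gene Anxa8 (0.83). Closest to Pdgfrb were Marveld1 (0.89), the chloride channel gene Ano1 (0.88), the matricellular gene Ccn4 (0.88) and Cd248 (0.87), a marker of fibroblasts and pericytes. Without MTO54 control replicate 1 these 4 coefficients were between 0.85 and 0.90. For Pdgfc they were Adamtsl4 (0.93), Pde2a (0.88), the chemokine receptor gene Ackr3 (0.88) and Dse (0.87). Without that tumour the coefficients for Pdgfc were between 0.62 and 0.74, so the likeness rested in part on it.

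Other genes of the pathway were read from fixed lists, for which 0 genes passed over all genes. The difference over 5 lines is given for each, and the median over all 15556 genes was 0.00. Of the related ligands, 5 of 6 had a lower treated mean, with a median of -0.06. The PDGFR-beta ligand gene Pdgfd lay near the filter level at 4.18 in controls and differed by -0.07 (SE 0.05), and the lymphatic growth factor gene Vegfc differed by -0.25 (SE 0.09). Vegfa, the main growth factor of vessels, differed by -0.20 (SE 0.23) and Vegfb by 0.07 (SE 0.08). Of the receptor kinases of the same class, Kit differed by 0.28 (SE 0.21), Csf1r by -0.21 (SE 0.15) and Flt3 by 0.04 (SE 0.07). None of these 9 relatives had a difference as large in size as those of Pdgfb and Pdgfrb, a contrast that was not tested.

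Genes that process or bind PDGFs had lower means in 8 of 12, with a median of -0.20, and 6 had an unadjusted p under 0.05. Pcsk5, a convertase of growth factor precursors, differed by -0.61 (SE 0.17), and Sparc, a matrix protein that binds PDGF-B, by -0.56 (SE 0.13). Lrp1, an endocytic receptor that associates with PDGFR-beta, differed by -0.53 (SE 0.24) and the receptor-like gene Pdgfrl by -0.30 (SE 0.17). The signalling genes inside the cell had differences nearer 0, and their direction hung on the scaling. Of 21 tested adaptors and effectors 4 had lower and 17 higher means, with a median of 0.07 and values between -0.22 for the phospholipase gene Plcg1 and 0.22 for the adaptor gene Crk (SE 0.14 and 0.24). The kinase gene Map2k1 differed by 0.21 (SE 0.16) and the adaptor gene Grb2 by 0.19 (SE 0.17), and 0 of the 21 had an unadjusted p under 0.05. With quantile normalization 14 of the 21 had lower means and the median was -0.01, with the array SD as a covariate 13 and -0.03, and without MTO68 control replicate 2 there were 8 and 0.01. Of 10 early response genes 3 had lower means, with a median of 0.04, against 6 and -0.03 without that array and 7 and -0.08 with the array SD as a covariate. Among them Egr2 stood apart at -0.70 (SE 0.25), lower in 5 of 5 lines, beside Ier3 at 0.26 (SE 0.21) and Fos at 0.25 (SE 0.24).

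Markers of the cells that carry PDGF receptors had lower treated means, as did Pdgfrb. All 14 tested fibroblast markers had lower treated means, with a median of -0.61, led by Lum at -1.50 (SE 0.43), Mmp2 at -1.07 (SE 0.30) and Col6a1 at -0.80 (SE 0.23). Their mean level per tumour lay between 6.88 and 8.30 in controls and between 6.60 and 7.43 in treated tumours. Pericyte markers were lower in 7 of 7 (6 of 7 without MTO68 control replicate 2), with a median of -0.21 and mean levels per tumour of 5.50 to 6.41 in controls and 5.34 to 6.07 in treated tumours. Smooth muscle markers were lower in 9 of 9, with a median of -0.42, and mean levels of 6.37 to 7.59 and 6.02 to 7.65. Among those with the largest differences were Kcnj8 at -0.54 (SE 0.12) and Actg2 at -0.94 (SE 0.47). No gene of these lists passed, although 4 of the 14 fibroblast markers did with quantile normalization, 8 with the array SD as a covariate and 1 without MTO68 control replicate 2. Kcnj8 passed with that covariate and without that array. Of the other lists, Sparc passed under all 3 of these settings, Grem1 with quantile normalization and the covariate, and Egr2, Tie1, Plvap, Ltbp2 and Col4a1 with the covariate. All 14 fibroblast and 9 smooth muscle markers had lower means under these settings, with median centring and without MTO68 control replicate 2 or MTO54 control replicate 1. The r of Pdgfrb to the mean marker level, with line means subtracted, was 0.73 for fibroblasts, 0.63 for pericytes and 0.22 for smooth muscle over 20 tumours.

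With the mean fibroblast marker level of each tumour as a covariate, the difference over 5 lines was -0.17 (SE 0.16) for Pdgfrb and -0.24 (SE 0.17) for Pdgfb. It was 0.12 (SE 0.20) for Pdgfc (limma adjusted p = 0.414, 0.282 and 0.653). This covariate differs between treated and control tumours itself, so the part of cell makeup in these differences was not tested.

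The gut mesenchyme was split further. In the list named after PDGFRA-high cells 8 of 10 genes had lower means, with a median of -0.07, and in that of PDGFRA-low and adventitial cells 7 of 8, with a median of -0.06, which was 4 of 8 without MTO68 control replicate 2. With the array SD as a covariate the lower counts were 6 of 10 and 4 of 8, and with quantile normalization 8 of 10 and 5 of 8. The matrix gene Tnc differed by -0.90 (SE 0.33), the BMP inhibitor gene Grem1 by -1.02 (SE 0.26) and the signalling gene Wnt5a by -0.55 (SE 0.21). These were the largest differences by size, and at their higher ends the lists reached 0.28 and 0.04. Markers of gut interstitial cells had lower means in 4 of 6, with a median of -0.04.

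Among the possible sources of PDGF-B, endothelial markers had lower means in 11 of 12, with a median of -0.24 and mean levels per tumour of 5.66 to 6.95 in controls and 5.67 to 6.30 in treated tumours. Emcn, a sialomucin of vessels, differed by -0.34 (SE 0.11) and the VEGF receptor gene Kdr by -0.30 (SE 0.12). Platelet and megakaryocyte markers had lower means in 6 of 7, with a median of -0.08 and mean levels of 5.38 to 6.65 and 4.99 to 6.66. Among them Itgb3 differed by -0.55 (SE 0.24) and Pf4 by -0.14 (SE 0.23). Macrophage markers had lower means in 7 of 8 with a median of -0.07, and mean levels of 6.19 to 7.83 and 6.57 to 7.55. This was 4 of 8 and 0.00 without MTO54 control replicate 1, 8 of 8 and -0.19 without MTO68 control replicate 2, and 8 of 8 and -0.24 with the array SD as a covariate. Epithelial markers had higher means in 12 of 12 (11 of 12 without MTO68 control replicate 2), with a median of 0.26, and mean levels of 8.54 to 10.4 in controls and 8.99 to 10.4 in treated tumours. By the mean level of each list, treated tumours were lower in 3 of 5 lines for endothelial, for platelet and for macrophage markers. The highest endothelial level, 6.95, was that of MTO54 control replicate 1, against at most 6.71 in any other tumour. The line-centred r of Pdgfb was 0.55 to endothelial, 0.69 to fibroblast, 0.41 to platelet, 0.29 to macrophage and -0.24 to epithelial markers. The part of these cell types in the Pdgfb values was not tested. Genes that respond to TGF-beta had lower means in 8 of 10, with a median of -0.45 and values from -1.09 to 0.18. Their mean level followed Pdgfb with a line-centred r of 0.76 and Pdgfrb with 0.73. Only line means were subtracted for these r values, so the treatment difference is still in them. Adam12, a metalloprotease, differed by -0.81 (SE 0.18) and Tgfbi, a secreted matrix protein, by -0.67 (SE 0.20). The genes of this list did not all move alike. The 2 with higher means were Bambi at 0.18 (SE 0.11) and Smad7 at 0.10 (SE 0.18), and Skil lay near 0 at -0.02 (SE 0.23).

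**Figure D4:**
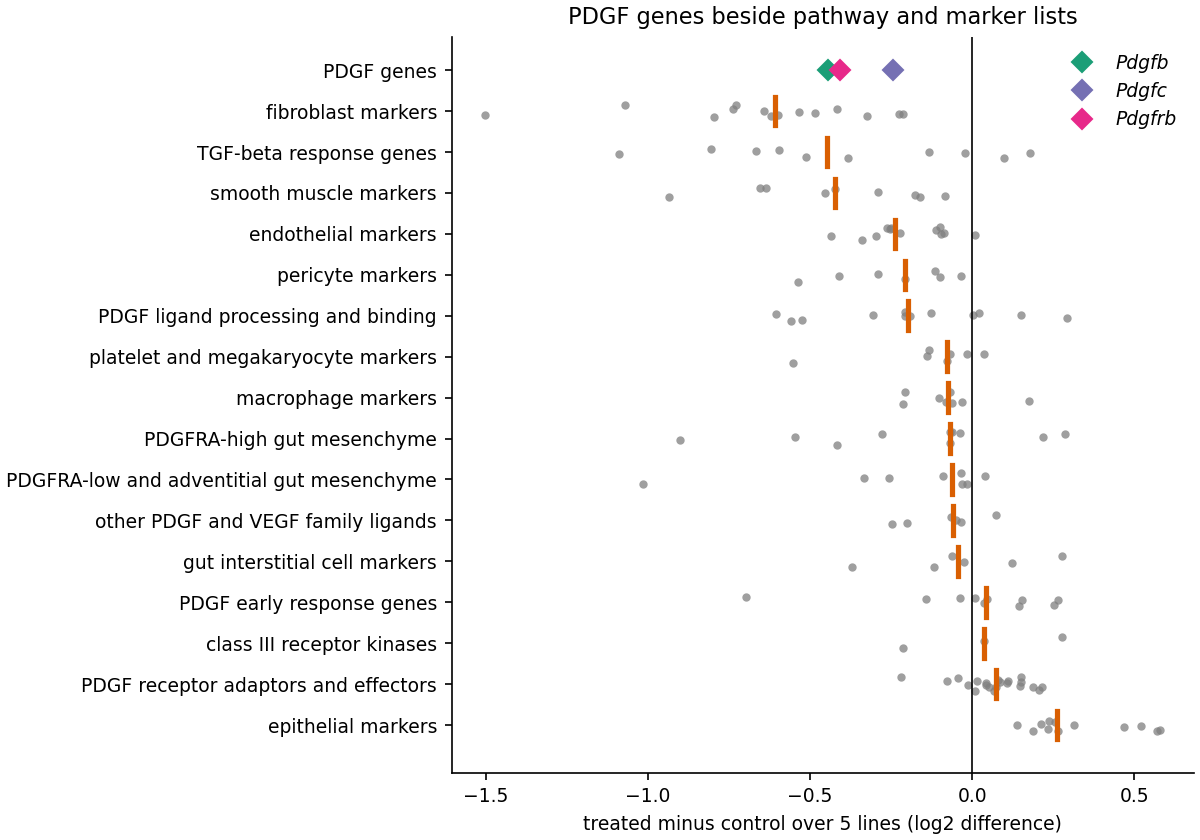
Difference of treated minus control over 5 lines on the log2 scale (x axis) for each tested gene of the pathway and marker lists (rows, grey dots, orange bar at the median) and for Pdgfb, Pdgfc and Pdgfrb (diamonds, top row). The diamonds at -0.44, -0.24 and -0.41 lie between the medians of the fibroblast list (-0.61) and the pericyte list (-0.21), and the adaptor and effector list (0.07) lies near 0, with a sign that changes with the scaling. No gene shown passed adjustment over all genes.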

How the data were processed

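The deposited values are log2 levels per probe set, which the authors computed by RMA; the submitters' processing notes name affy as the tool. No version was given in the sources used here. Arrays labelled LY were taken as the galunisertib-treated tumours. Of 45141 probe sets, 28898 had a single symbol, 551 several and 15692 no gene in the annotation used, and 28689 were matched by Entrez ID to current RefSeq symbols. A gene was tested if 2 or more arrays exceeded 4.16, the percentile 25 of the table.

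For the difference over 5 lines, treatment and line entered a limma model (version 3.58.1, R 4.3.3; lmFit and a trended eBayes). All other comparisons used a mean for each of 10 groups and a shared spread, since groups held 2 tumours. Two-sided p-values were adjusted by Benjamini-Hochberg over every tested gene and called at 0.05, and the model was tested on simulated data. The number of arrays limits the precision. The design text calls the 2 tumours of a group biological replicates. No 2 arrays were identical (0 pairs).

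The genes, lists and alternatives were chosen with earlier results of these data known. Named genes were the 5 PDGF genes, the 4 most alike by r, and up to 4 per pathway list or 3 per marker list by size of difference. The others stand in counts, with exceptions named after their values were seen. Plvap and Col4a1 were named because they passed under an alternative. Bambi, Smad7 and Skil were named because they did not fall with the rest of their list. Csf1r and Kit were on 2 lists each. Alternatives were quantile normalization, median centring, averaging a gene's probe sets, keeping dim genes, the array SD or the fibroblast level as a covariate, no strip block, and omission of each array or line.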

Additional observations from a re-analysis of the deposited data

Results flagged for a closer look

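In MTO54 control replicate 1, Pdgfc was at 6.92, far above the other 9 control tumours, the highest of which was at 5.32. Its second probe set was at 6.48 there, against at most 5.36 in any other tumour. Pdgfrb was at 7.81 in the same tumour, and the next highest control was at 7.28. The gap to the next control, as a share of the range of the 10 controls, was 0.748 for Pdgfc. For Pdgfrb it was 0.491, only just past the cut of 0.466. Chance marks about 1 in 20 groups when all values come from a single population, and 6 groups were examined. The 10 control tumours came from 5 lines with different control means, so that rate was not shown to hold for them. In this tumour the mean levels of fibroblast (8.30), pericyte (6.41) and endothelial markers (6.95) and of genes that respond to TGF-beta (8.46) were the highest of 20, and epithelial markers, at 8.71, ranked 18 of 20. The part of cell makeup in these values was not tested.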

How the results depend on the processing

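Of 141 member values under alternatives other than omitting an array, 128 kept their direction and side of the threshold. Quantile normalization brought past it Pdgfb (-1.004) and Pdgfrb (-1.06) in MTO68 and Pdgfb between control lines (1.08), as did the array SD covariate for the last (1.11). Signs turned for Pdgfc over 5 lines with the fibroblast covariate (0.12) and in MTO68 with the array SD (-0.43). In MTO207 they turned for Pdgfb (-0.07 with quantiles, -0.11 with the array SD), Pdgfrb (-0.011 and -0.002) and Pdgfc (0.12 with the mean of probe sets, 0.041 with median centring, 0.084 with quantiles). The cause was not tested. Adjusted p-values within a line also depend on how many other genes are called, which moved widely without single arrays. A PDGF gene passing in such a fit is thus not read as a result. Without single arrays the range was -0.12 to 0.33 for Pdgfc and -1.06 to -0.82 for Pdgfrb in MTO68. In MTO54 it was -0.64 to 0.14 for Pdgfb, -1.63 to 0.29 for Pdgfc and -0.68 to 0.067 for Pdgfrb, the higher ends without MTO54 control replicate 1 and the lower without replicate 2. In MTO207 it was -0.12 to 0.31 for Pdgfb, -0.14 to 0.08 for Pdgfc and -0.053 to 0.32 for Pdgfrb. Control spans ran from 0.82 to 1.60 for Pdgfb and 0.23 to 2.03 for Pdgfc.

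Counts of all genes called moved more. Over 5 lines 0 became 57 with quantiles (2 higher, 55 lower), 166 with the array SD, 1561 with the fibroblast covariate, 10 without MTO68, 2 without MTO54, and 0 to 43 without single arrays. In MTO68 312 became 144 with quantiles, 62 with the array SD and 40 to 8320 without single arrays. In MTO140 1 became 2 without the filter, 0 with median centring, 11 with the array SD and 0 to 26. In MTO93 the range was 0 to 1 and in MTO54 0 to 7. For the difference between lines 10 became 5 with quantiles, 2 with the array SD and 2 to 2809, and for control levels 436 became 915 with quantiles and 125 to 7316. No paired analysis was possible because replicates carry no shared numbers in the labels.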
